A study of Homo sapiens with 27 samples.

Results

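The 9 genes described here encode proteins that activate plasminogen, cut collagen and other matrix, or hold such enzymes in check: PLAU, PLAT, PLAUR, SERPINB2, MMP1, MMP13, MMP14, TIMP1 and TIMP2. They were chosen by name and found by symbol, and are 9 of 27546 symbols listed in at least 1 of 3 count tables. All 9 are listed for DU145 and PC3, and 8 for 22Rv1, where SERPINB2 was not analysed here. The study sequenced bulk RNA of 27 libraries from human prostate cancer cell lines after guide RNAs against RIPK2, a kinase that relays signals from the intracellular bacterial sensors NOD1 and NOD2. 22Rv1 is a line grown from a prostate carcinoma xenograft, and DU145 and PC3 are lines from metastases. Each line has 3 control libraries, of cells given control gRNA 1 and labelled wild type. The RIPK2 knockout libraries were 3 with gRNA 1 and 3 with gRNA 10 in 22Rv1, and 3 with gRNA 2 and 3 with gRNA 10 in each of DU145 and PC3. No drug, dose or time is given in the labels. They do not say whether a knockout population is 1 clone or a pool, nor whether replicates are separate cultures, so the p-values measure only the spread between these samples, which may be technical. Both knockout groups of a line are compared with the same 3 control libraries, and the 2 comparisons are therefore not independent.

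Plasminogen is a circulating precursor that urokinase (PLAU) and tissue plasminogen activator (PLAT) cut into plasmin, a protease of fibrin and matrix that can also activate precursors of matrix metalloproteinases. Urokinase works mostly on the cell surface, bound to its receptor (PLAUR), and serpins such as SERPINB2 block the activators. MMP1 and MMP13 are secreted collagenases, MMP14 is a membrane-anchored collagenase that activates pro-MMP2 together with TIMP2, and TIMP1 and TIMP2 are secreted inhibitors of the metalloproteinases. These systems are known for their part in invasion of carcinoma cells.

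The library totals ran from 17958558 to 20650819 counts, and levels are given as CPM, read counts put on 1 scale of library size by trimmed-mean (TMM) factors, line by line. An observed 0 still permits up to 3 counts, or 0.145 to 0.167 CPM, by counting error alone. RIPK2 itself was lower in all 18 knockout libraries than in every control library of its line. It averaged 16.7 ± 1.29 CPM in the 22Rv1 control cells (SD, n = 3, as in all groups) and 8.69 ± 0.633 and 5.38 ± 0.189 with gRNA 1 and gRNA 10. In PC3 it went from 60.4 ± 1.74 to 20.6 ± 0.946 with gRNA 2 and 27.2 ± 1.51 with gRNA 10. In DU145 it went from 42.4 ± 2.67 to 11.8 ± 1.77 with gRNA 2, but only to 34.8 ± 1.51 with gRNA 10, a log2 change of -0.29 that did not pass the test (edgeR adjusted p = 0.0614). That change passed without any 1 of the gRNA 2 libraries (adjusted p = 0.0235, 0.0311 and 0.0140 without replicates 1, 2 and 3), with only the libraries compared (0.000576) and with DESeq2 (0.0454). Of markers of other cell types, the fibroblast gene COL1A1 reached 1157 counts in a library, COL3A1 741, PDGFRB 51 and LUM 41, while COL1A2 and DCN stayed at or below 8 and 2. The endothelial gene PECAM1 reached 197 counts, VWF 22 and CDH5 4, and of the leukocyte genes CD14 reached 62, LYZ 10, PTPRC 6 and CD3E 1. A pair of libraries stand apart from their group: 22Rv1 gRNA 1 replicate 3, with 16.7% of its counts on mitochondrial genes against 0.515% to 2.10% in the other 22Rv1 libraries, and DU145 gRNA 2 replicate 3. Where leaving them out changed a call, a direction or a fold by over 1.5 times, both values are given. The mitochondrial share also separated every knockout group from its controls without overlap, except PC3 gRNA 2. In 22Rv1 it was 0.515% to 1.28% in controls, 1.92% to 16.7% with gRNA 1 and 1.81% to 2.06% with gRNA 10. DU145 had 1.26% to 1.32% in controls, 1.75% to 2.89% with gRNA 2 and 2.46% to 2.77% with gRNA 10. PC3 had 4.44% to 4.69% in controls, 4.34% to 4.59% with gRNA 2 and 2.90% to 3.20% with gRNA 10. Its part in the results below was not tested. In bulk RNA, fewer cells of a type and less RNA per cell cannot be told apart.

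The promoters of the urokinase pair and of MMP14 are shown because PLAU and PLAUR moved in the same direction in PC3, while MMP14 moved in opposite directions in different lines. Each run covers 250 bases before and 50 bases after a RefSeq start (GRCh38.p14), 5′ to 3′ on the gene's strand. The AP-1 consensus TGAGTCA, searched on both strands, is in capitals. PLAU has 2 starts, at chr10:73910360-73910659 and chr10:73910882-73911181 on the plus strand. PLAUR is at chr19:43670120-43670419 on the minus strand and MMP14 at chr14:22836335-22836634 on the plus strand.
PLAUR: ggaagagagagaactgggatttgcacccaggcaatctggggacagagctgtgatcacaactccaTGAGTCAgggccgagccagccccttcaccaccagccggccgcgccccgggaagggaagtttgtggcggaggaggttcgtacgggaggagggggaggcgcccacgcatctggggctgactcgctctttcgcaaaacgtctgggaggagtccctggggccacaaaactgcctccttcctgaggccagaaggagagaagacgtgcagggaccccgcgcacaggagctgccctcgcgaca
PLAU, first start: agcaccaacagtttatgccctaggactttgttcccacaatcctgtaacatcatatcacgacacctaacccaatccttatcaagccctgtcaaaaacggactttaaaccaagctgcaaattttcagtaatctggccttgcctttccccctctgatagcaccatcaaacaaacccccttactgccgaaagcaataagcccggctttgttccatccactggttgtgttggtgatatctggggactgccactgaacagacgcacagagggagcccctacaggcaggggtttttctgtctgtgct
PLAU, second start: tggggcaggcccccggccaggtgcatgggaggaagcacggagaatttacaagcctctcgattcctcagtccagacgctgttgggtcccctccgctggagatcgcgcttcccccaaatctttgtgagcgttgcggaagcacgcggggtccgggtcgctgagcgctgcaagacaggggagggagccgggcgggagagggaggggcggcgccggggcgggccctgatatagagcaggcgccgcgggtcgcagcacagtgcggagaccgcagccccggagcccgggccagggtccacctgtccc
MMP14: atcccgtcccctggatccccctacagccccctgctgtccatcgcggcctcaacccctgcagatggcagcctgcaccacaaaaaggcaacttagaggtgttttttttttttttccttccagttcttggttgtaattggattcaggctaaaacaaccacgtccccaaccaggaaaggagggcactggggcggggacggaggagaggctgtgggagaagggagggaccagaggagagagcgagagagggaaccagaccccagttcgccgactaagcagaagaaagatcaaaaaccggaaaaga

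The PLAUR run holds 1 match, which begins 186 bases before the start, and the other 3 runs hold none. Across the 6 RefSeq promoters matched to members (PLAU with 2 starts, PLAUR, SERPINB2, MMP14 and TIMP1), 1 held the motif, and 4.95% of all 35116 promoters of this length did. PLAT, MMP1, MMP13 and TIMP2 had no entry.

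In control cells, PLAU was high in DU145 and PC3 and near 0 in 22Rv1, and PLAT, MMP1 and MMP13 were far higher in PC3 than in the other lines. To compare genes, CPM were divided by the length of their merged exons, and to compare lines, all 27 libraries were scaled together. TIMP1 was the highest gene of the group in 22Rv1, at 43.8 ± 4.86 CPM per kb, followed by MMP14 at 4.20 ± 0.547, TIMP2 at 0.943 ± 0.0272, PLAUR at 0.800 ± 0.0111 and PLAT at 0.269 ± 0.0554. PLAU had 0, 1 and 1 counts in the 22Rv1 control libraries, and MMP1 and MMP13 had none. DU145 was led by PLAU at 109 ± 1.21 CPM per kb, then TIMP1 (45.7 ± 1.62), TIMP2 (37.3 ± 1.32), PLAUR (16.0 ± 0.422) and MMP14 (10.3 ± 0.966), with PLAT at 0.364 ± 0.0213, MMP13 at 0.243 ± 0.0336 and MMP1 at 0.0318 ± 0.0141. PC3 had the broadest set. There TIMP1 stood at 181 ± 5.90 CPM per kb, PLAT at 169 ± 5.11, PLAU at 109.6 ± 2.34, TIMP2 at 82.4 ± 0.766, MMP1 at 37.1 ± 0.172, MMP13 at 25.7 ± 1.05, MMP14 at 22.0 ± 0.236 and PLAUR at 4.78 ± 0.584. SERPINB2 was the lowest of the 9 in PC3, with 20 to 26 counts a library, and had 0 in the DU145 control libraries. Within each line the library ranges of neighbours in this order did not overlap, except among the 22Rv1 genes at or near 0.

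**Figure D1:**
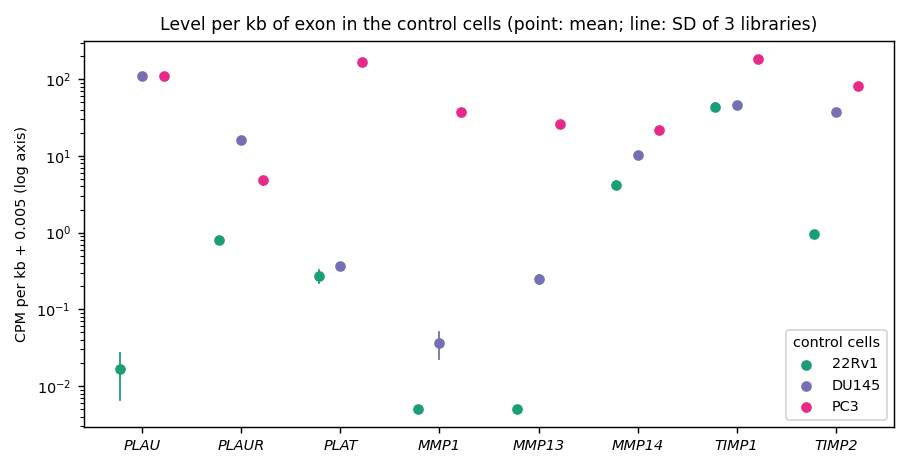
Mean level of 8 genes in the control cells of each line in CPM per kb of merged exon (log axis, 0.005 added), with lines for the SD of 3 libraries; SERPINB2, not analysed here in 22Rv1, is left out. PLAU is at the same height in DU145 and PC3 and near the bottom in 22Rv1, while MMP1, MMP13 and PLAT stand apart in PC3.

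Tested in 1 model of all 27 libraries (edgeR quasi-likelihood, Benjamini-Hochberg adjusted over 16322 genes), 6 of the 8 genes differed between control 22Rv1 and control DU145, where 75.9% of all genes did, 8 of 8 between 22Rv1 and PC3 (80.5% of all genes), and 7 of 8 between DU145 and PC3 (75.9%). All differences called against 22Rv1 were lower in 22Rv1, as were 37.9% of all genes against DU145 and 39.4% against PC3 (38.0% and 41.1% were higher). Of the 7 between DU145 and PC3, 1 was higher and 6 were lower in DU145, beside 38.8% and 37.1% of all genes. The one for MMP1 against DU145 rests on 0 against 4 counts, at the detection limit, and was lost with DESeq2 (adjusted p = 0.0664). PLAU, with 2 counts over the 22Rv1 control libraries, was 9645-fold higher in DU145 (95% counting interval 2670 to 79648) and 8249-fold higher in PC3 (2283 to 68121). DU145 and PC3 did not differ in PLAU, with a log2 difference of -0.0045 (SE 0.14, adjusted p = 0.982). PLAT was lower in DU145 than in PC3, with a log2 difference of -8.86 ± 0.19 (estimate ± SE, adjusted p = 2.85e-23). PLAUR alone of the 7 was higher in DU145, by 1.74 ± 0.22 log2 units (adjusted p = 6.37e-08). MMP1 was at least 415-fold and MMP13 at least 413-fold higher in PC3 than in 22Rv1, computed against 3 counts per library. TIMP1 had a log2 difference of -0.06 between 22Rv1 and DU145 (SE 0.14, adjusted p = 0.692) and -2.05 between 22Rv1 and PC3 (adjusted p = 3.28e-13). Line and any batch of preparation cannot be told apart in these comparisons.

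The main question of the design was how each RIPK2 guide changed a line from its control. The tests below were edgeR's quasi-likelihood fits of the 9 libraries of a line, with p-values adjusted over all genes tested, and a gene is called at an adjusted p below 0.05. In 22Rv1, 5 of the 8 listed members passed the filter on low counts. With gRNA 1, 3 of these 5 were called, beside 48.5% of all genes tested. Of the 3, 2 were higher and 1 lower (25.6% and 22.9% of all genes). With gRNA 10, 4 of 5 were called, beside 40.6%, 2 higher and 2 lower (20.0% and 20.6%). In DU145, 7 of 9 members passed the filter, of which 2 were called with gRNA 2, beside 34.0%, both higher (17.1% of all genes were higher and 17.0% lower). With gRNA 10, 3 were called, beside 40.0%, 1 higher and 2 lower (20.2% and 19.8%). In PC3 all 9 passed, and 8 were called with gRNA 2, beside 63.6%, 4 higher and 4 lower (32.1% and 31.5%). With gRNA 10 all 9 were called, beside 73.5%, 3 higher and 6 lower (37.9% and 35.6%). The DU145 shares and that of 22Rv1 gRNA 1 are near the background. The other shares rest on 5 or 9 genes and were not tested against it. The median log2 change of the tested members was 0.59 and 0.31 in 22Rv1, 0.12 and -0.16 in DU145, and -0.13 and -0.67 in PC3, in the same order of guides. Over all genes tested the medians lay between 0.00 and 0.02. Each median of the members is the estimate of 1 gene, and in 22Rv1 and DU145 that gene was not called. It was PLAT and PLAUR in 22Rv1, and PLAUR and MMP13 in DU145, so these medians show no shift of the group. Leaving out any 1 library gave 2 to 4 called members with gRNA 1 in 22Rv1, and 2 without its replicate 3. Without its replicate 3, DU145 gRNA 2 gave 4 called members, and gRNA 10, which shares the estimate of spread, gave 5.

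**Figure D2:**
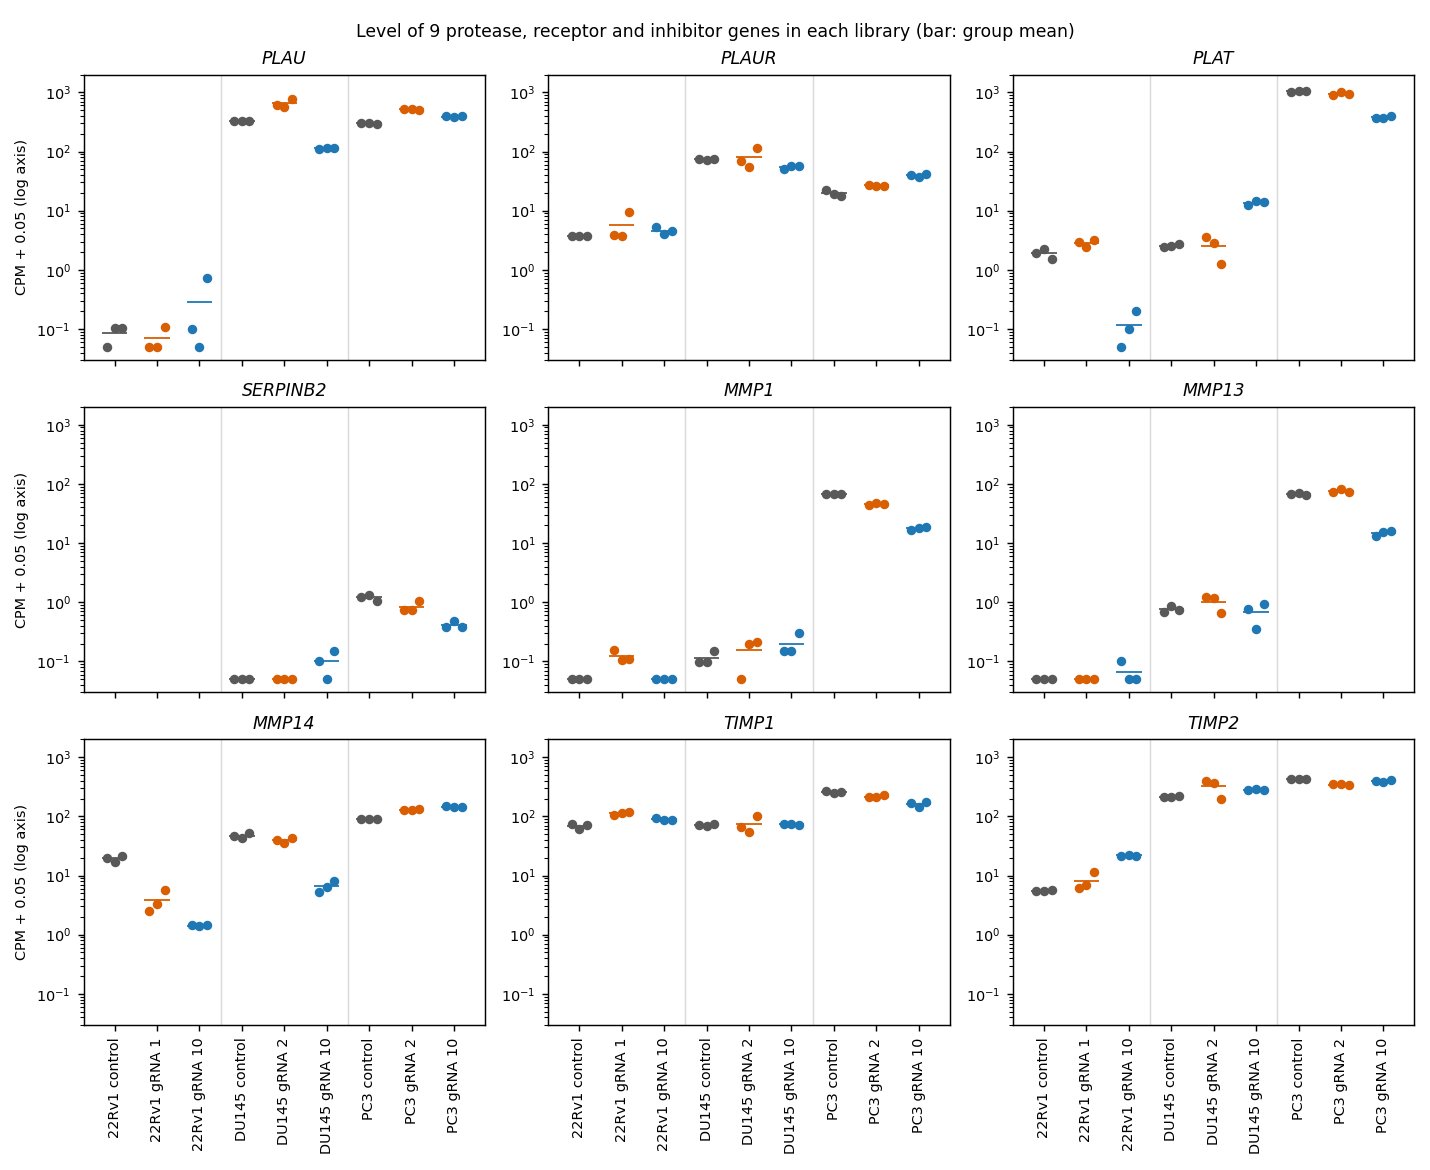
CPM in each of the 27 libraries (log axis, 0.05 added; each line scaled by its own fit), 1 panel a gene, with bars at the group means; grey is control, orange gRNA 1 or 2, blue gRNA 10. MMP14 lies below its controls in 22Rv1 with both guides and in DU145 with gRNA 10, and above them in PC3.

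Among the activators, PLAU moved in both lines that express it. The DU145 control libraries held 328, 334 and 333 CPM, the gRNA 2 libraries 603, 567 and 785, and the gRNA 10 libraries 111, 114 and 115. All gRNA 2 libraries were thus above and all gRNA 10 libraries below the controls, with no overlap. PLAU rose with gRNA 2 by 0.97 ± 0.11 log2 units (adjusted p = 0.000185) and fell with gRNA 10, at -1.55 ± 0.12 (adjusted p = 6.28e-06). The guides differed by 2.52 ± 0.12 log2 units (adjusted p = 4.01e-07). In PC3 the control libraries held 299, 307 and 294 CPM, those with gRNA 2 517, 521 and 505, and those with gRNA 10 391, 387 and 394. Here both guides lay above the controls, by 0.78 ± 0.03 log2 units with gRNA 2 (adjusted p = 1.14e-18) and 0.38 ± 0.03 with gRNA 10 (adjusted p = 1.60e-11). In 22Rv1, PLAU stayed at 0 or 1 count in 8 of 9 libraries and had 13 counts in gRNA 10 replicate 3, which decided the group's total of 14 against 2 in the controls.

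PLAT, the other activator, had its highest levels in PC3 and differed between the guides of every line. The PC3 control libraries held 1006, 1073 and 1042 CPM, those with gRNA 2 918, 1009.8 and 923, and those with gRNA 10 370.1, 373 and 399. The gRNA 2 range overlapped the controls, whereas the gRNA 10 libraries were far below. The log2 change was -0.13 ± 0.04 with gRNA 2 (adjusted p = 0.00462) and -1.45 ± 0.04 with gRNA 10 (adjusted p = 3.65e-23). In DU145 the level was 2.35, 2.45 and 2.64 CPM in the controls, 3.52, 2.78 and 1.22 with gRNA 2, and 12.3, 14.4 and 13.9 with gRNA 10. PLAT thus rose in DU145 with gRNA 10, by 2.45 ± 0.27 log2 units (adjusted p = 6.94e-05), and with gRNA 2 its libraries lay on both sides of the controls (0.03 ± 0.29, adjusted p = 0.951). In 22Rv1 the counts were 35, 41 and 27 in the controls, 54, 44 and 52 with gRNA 1, and 0, 1 and 3 with gRNA 10. The gRNA 10 libraries were at the detection limit. Their 4 counts against 103 make PLAT 26.6-fold lower than control (95% counting interval 10.1 to 99.4, edgeR adjusted p = 3.73e-05), while the gRNA 1 libraries, all above the controls, did not pass (0.59 ± 0.29, adjusted p = 0.114).

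PLAUR, the urokinase receptor, rose with both guides in PC3. Its PC3 control libraries held 22.5, 19.0 and 17.9 CPM, those with gRNA 2 27.05, 26.6 and 26.5, and those with gRNA 10 40.6, 37.2 and 42.0. The 3 groups did not overlap, and the changes were 0.43 ± 0.07 log2 units (adjusted p = 4.88e-06) and 1.01 ± 0.07 (adjusted p = 3.92e-14). The order of the guides was opposite to that of PLAU, and both guide differences passed the test, at 0.40 ± 0.03 for PLAU (gRNA 2 minus gRNA 10, adjusted p = 4.26e-12) and -0.58 ± 0.06 for PLAUR (adjusted p = 2.79e-09). In DU145 PLAUR was at 74.4, 71.0 and 74.3 CPM in the controls, 69.0, 55.6 and 114 with gRNA 2, and 50.1, 56.0 and 56.8 with gRNA 10. All gRNA 10 libraries were below the controls, but the change of -0.43 ± 0.21 did not pass (adjusted p = 0.122). The wide gRNA 2 group set the spread. Without its replicate 3 the gRNA 10 change passed (-0.43, adjusted p = 0.000471), and the gRNA 2 estimate went from 0.12 to -0.23, which did not pass. In 22Rv1 PLAUR lay between 3.63 and 5.22 CPM in all libraries but gRNA 1 replicate 3, the one rich in mitochondrial counts, which held 9.58 CPM. Neither guide passed in 22Rv1 (adjusted p = 0.130 and 0.481), and the gRNA 1 change was 0.63 with that library and 0.04 without it. The difference of gRNA 1 minus gRNA 10 went from 0.32 to -0.27 without it, and neither value passed.

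**Figure D3:**
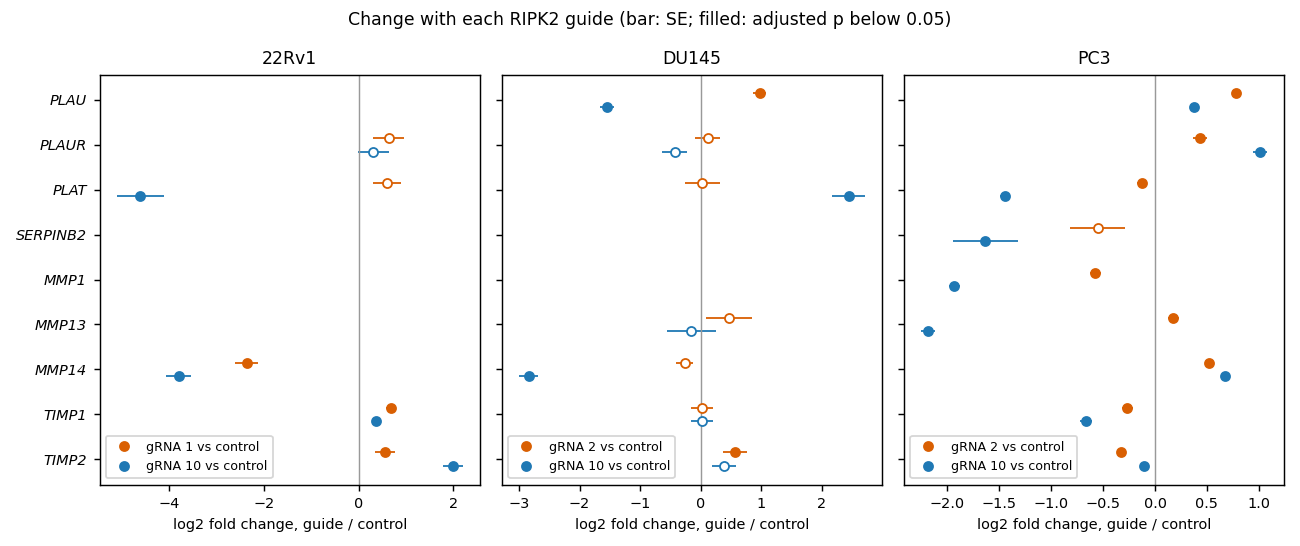
Log2 fold change of each tested gene with each RIPK2 guide against the control of its line (bars are SE; filled points passed an adjusted p of 0.05; the axes differ between lines). In DU145 the orange and blue points of PLAU lie on opposite sides of 0, and the 22Rv1 PLAT point for gRNA 10 rests on 4 counts.

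SERPINB2, the intracellular and secreted serpin also called plasminogen activator inhibitor 2, was measurable in PC3. Its counts were 24, 26 and 20 in the controls, 14, 14 and 20 with gRNA 2, and 7, 9 and 7 with gRNA 10. Only 1 gRNA 2 library reached the lowest control count, and all gRNA 10 libraries were below both other groups. It fell with gRNA 10 (-1.64 ± 0.31 log2 units, adjusted p = 2.69e-05), and gRNA 2 did not pass (-0.55 ± 0.26, adjusted p = 0.0669). In DU145 it had at most 2 counts in any library.

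The secreted collagenases MMP1 and MMP13 lie 144834 bases apart on chromosome 11, with MMP3 and MMP12 between them, and were well expressed in PC3. MMP1 stood at 67.4, 68.1 and 68.2 CPM in the PC3 controls, at 43.4, 48.1 and 45.2 with gRNA 2, and at 16.4, 17.9 and 18.9 with gRNA 10. It fell in steps without overlap between the groups, by -0.57 ± 0.05 log2 units (adjusted p = 1.77e-11) and -1.93 ± 0.06 (adjusted p = 2.57e-23). MMP13 had 67.9, 70.2 and 64.7 CPM in the controls, 73.9, 81.2 and 73.8 with gRNA 2, and 13.1, 15.3 and 16.2 with gRNA 10. With gRNA 2 it therefore moved opposite to its neighbour MMP1, up by 0.18 ± 0.05 (adjusted p = 0.00438), a call lost without gRNA 2 replicate 2 (adjusted p = 0.0558). With gRNA 10 it fell 4.55-fold (-2.19 ± 0.06, adjusted p = 1.24e-22). MMP13 in DU145 had 6 to 24 counts a library, with overlapping groups and no call, and MMP1 had at most 5 counts there. In 22Rv1 neither gene had more than 2 counts in any library.

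MMP14, the membrane-anchored collagenase, was called in 5 of the 6 guide comparisons, with opposite signs in different lines. In 22Rv1 the control libraries held 19.8, 16.7 and 21.6 CPM, those with gRNA 1 2.50, 3.24 and 5.53, and those with gRNA 10 1.39, 1.34 and 1.39. MMP14 thus fell 5.17-fold with gRNA 1 (-2.37 ± 0.24, adjusted p = 2.18e-05) and further with gRNA 10 (-3.81 ± 0.27, adjusted p = 1.53e-06). The highest gRNA 1 value came from the library rich in mitochondrial counts, and without it the change was -2.76. In DU145 the controls held 46.6, 43.0 and 51.8 CPM, the gRNA 2 libraries 39.7, 35.1 and 43.3, and the gRNA 10 libraries 5.29, 6.34 and 8.06. It fell 7.18-fold with gRNA 10 (-2.84 ± 0.16, adjusted p = 1.01e-06), while the gRNA 2 libraries overlapped the controls (-0.26 ± 0.14, adjusted p = 0.168, or -0.33 and 0.0332 without replicate 3). PC3 went the other way. Its controls held 89.8, 91.9 and 91.7 CPM, those with gRNA 2 130.1, 129 and 132, and those with gRNA 10 147, 142 and 146. MMP14 rose there by 0.52 ± 0.04 log2 units with gRNA 2 (adjusted p = 5.33e-13) and 0.67 ± 0.04 with gRNA 10 (adjusted p = 4.11e-16).

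TIMP1, a secreted inhibitor, rose in 22Rv1 and fell in PC3 with both guides. The 22Rv1 libraries held 75.3, 61.3 and 72.0 CPM of TIMP1 in the controls, 105, 113 and 118 with gRNA 1, and 95.1, 86.9 and 88.0 with gRNA 10. TIMP1 rose above every control with both guides, by 0.69 ± 0.10 (adjusted p = 0.000285) and 0.37 ± 0.10 log2 units (adjusted p = 0.0123, but 0.0588 without gRNA 10 replicate 1). In PC3 it fell, from 266, 250.2 and 260.5 CPM to 209, 210.1 and 226 with gRNA 2 (-0.27 ± 0.06, adjusted p = 0.000685) and 169, 145 and 175 with gRNA 10 (-0.67 ± 0.06, adjusted p = 3.05e-08). In DU145 the controls held 69.9 to 75.0 CPM and the gRNA 10 libraries 72.0 to 74.2, an estimate of 0.02 ± 0.18 (adjusted p = 0.939). The gRNA 2 libraries there were spread, at 64.9, 54.1 and 102 CPM (0.02 ± 0.18, adjusted p = 0.938), and without replicate 3 TIMP1 fell (-0.28, adjusted p = 0.0136).

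TIMP2, the other inhibitor, was called higher in 22Rv1 and lower in PC3. In 22Rv1 it stood at 5.39, 5.38 and 5.68 CPM in the controls, 6.12, 6.75 and 11.4 with gRNA 1, and 21.5, 22.2 and 21.7 with gRNA 10. It rose 3.98-fold with gRNA 10 (1.99 ± 0.20, adjusted p = 2.47e-05). The gRNA 1 call (0.56 ± 0.21, adjusted p = 0.0455) rested on replicate 3, without which it was 0.22 (adjusted p = 0.130), and it was lost, too, when 1 library of either other group was left out. In DU145 TIMP2 was at 213, 211 and 225 CPM in the controls, 397, 369 and 199.6 with gRNA 2, and 281, 289 and 276 with gRNA 10. Replicate 3 of gRNA 2 was the lowest of the 9 libraries, and the other two of its group were the highest. The gRNA 2 change was 0.57 ± 0.20 (adjusted p = 0.0463), or 0.83 without that library (adjusted p = 2.18e-07), but lost its call without replicate 1 or replicate 2 of gRNA 2 or any 1 library of the other groups (adjusted p from 0.0669 to 0.157). The gRNA 10 change of 0.38 ± 0.20 did not pass (adjusted p = 0.149) and passed without gRNA 2 replicate 3 (0.38, adjusted p = 5.46e-05). In PC3 TIMP2 fell from 426, 431 and 435 CPM to 348, 346 and 339 with gRNA 2 (-0.32 ± 0.03, adjusted p = 1.08e-09) and 402, 386 and 409.8 with gRNA 10 (-0.11 ± 0.03, adjusted p = 0.00445).

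**Figure D4:**
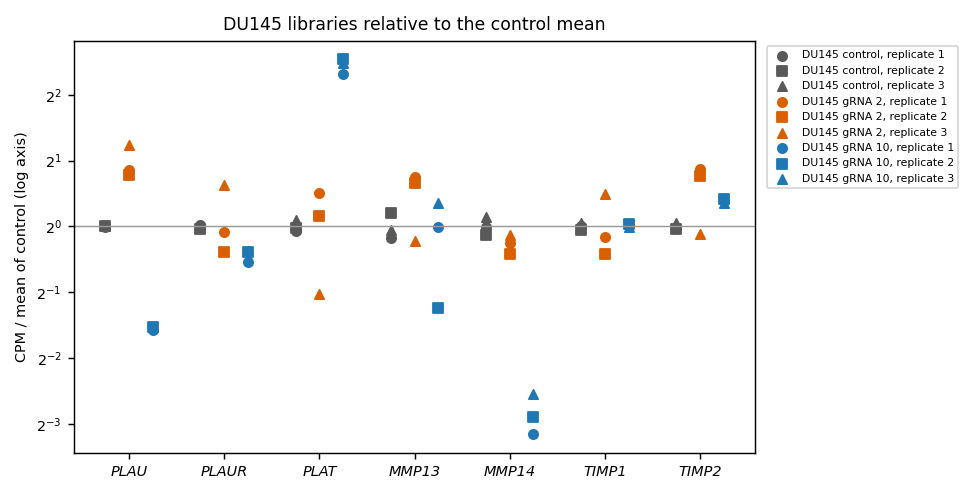
CPM of 7 genes in the 9 DU145 libraries, divided by the mean of the controls (log axis; grey control, orange gRNA 2, blue gRNA 10; circle, square and triangle are replicates 1, 2 and 3). The orange triangle, gRNA 2 replicate 3, lies above its group for PLAU, PLAUR and TIMP1 and below it for PLAT, MMP13 and TIMP2.

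The guides of a line were also tested against each other. In 22Rv1, 4 of 5 members differed between gRNA 1 and gRNA 10 (35.6% of all genes did), 3 higher and 1 lower with gRNA 1 (18.8% and 16.8%), namely MMP14 (1.44 log2 units higher with gRNA 1), PLAT, TIMP1 (0.32 higher) and TIMP2 (-1.43). The TIMP1 call (edgeR adjusted p = 0.0303) was lost without gRNA 1 replicate 2 (0.0711) and with no filter on low counts (0.104). It was also lost without gRNA 10 replicate 1, 2 or 3 (0.0593, 0.122 and 0.112). In DU145, 3 of 7 differed (38.8% of all genes), 2 higher and 1 lower with gRNA 2 (19.2% and 19.6%): PLAU, MMP14 (2.58 higher with gRNA 2) and PLAT (-2.42). Without gRNA 2 replicate 3, 5 differed, when TIMP1 (-0.30, adjusted p = 0.00876) and TIMP2 (0.45, adjusted p = 5.12e-05) passed too. With all libraries TIMP1 and TIMP2 stood at 0.0021 and 0.19 (edgeR adjusted p = 0.994 and 0.470). In PC3, 9 of 9 differed (73.4% of all genes), 6 higher and 3 lower with gRNA 2 (36.5% and 36.9%), with MMP13 (2.36 higher with gRNA 2), MMP1 (1.36) and PLAT (1.32) the farthest apart. Marker sums also differed between these groups. The 6 fibroblast markers summed to 14.3 to 15.4 CPM in DU145 controls, 5.86 to 12.5 with gRNA 2 and 25.03 to 31.4 with gRNA 10, nearly all of it COL1A1, with 3 or 4 of the 6 above 3 counts in some library. In 22Rv1 they summed to 9.52 to 11.7 in controls, 14.9 to 32.5 with gRNA 1 and 26.9 to 28.5 with gRNA 10. In PC3 they summed to 64.5 to 66.5, 55.4 to 66.3 and 70.2 to 73.9, with COL1A1 higher and COL3A1 lower in every knockout library than in the controls. The 3 endothelial markers summed to 1.80 to 2.24 CPM in PC3 controls, 8.75 to 9.81 with gRNA 2 and 5.996 to 7.85 with gRNA 10, almost all of it PECAM1. In DU145 they summed to 0.195 to 0.768 in controls, 0.0553 to 0.633 with gRNA 2 and 0.901 to 1.65 with gRNA 10. None of the 3 exceeded 3 counts in a 22Rv1 library. The 4 leukocyte markers, of which 3 are listed in DU145 and in PC3, summed to 2.01 to 3.03 CPM in DU145 controls, 0.498 to 1.39 with gRNA 2 and 2.30 to 2.82 with gRNA 10, nearly all of it CD14. In 22Rv1 they summed to 0.960 to 1.18 in controls, 0.540 to 0.714 with gRNA 1 and 0.981 to 1.54 with gRNA 10. PC3 had 0.549 to 0.795, 1.03 to 1.78 and 0.674 to 1.06 (controls, gRNA 2, gRNA 10). The sum of the 4 epithelial markers was above the controls in every knockout library, as was KRT18, but other markers were lower in some groups. With DU145 gRNA 10, EPCAM was at 29.7 to 36.4 CPM against 56.0 to 59.7 in controls, and CDH1 was also below every control. So were CDH1 with 22Rv1 gRNA 1, KRT8 with 22Rv1 gRNA 10 and EPCAM with PC3 gRNA 10. The 4 markers summed to 821 to 876 CPM in 22Rv1 controls, 993 to 1011 with gRNA 1 and 1044 to 1077 with gRNA 10. In DU145 the sums were 796 to 841, 1486 to 2816 and 1430 to 1543 (controls, gRNA 2, gRNA 10), and in PC3 734 to 759, 921 to 972 and 1641 to 1759. The part of these differences in the results was not tested.

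Whether the knockout effect, the mean of both guides minus control, differed between lines was tested in the model of 27 libraries. MMP14, PLAT, TIMP1 and TIMP2 each differed in all 3 pairs of lines. For MMP14 the mean log2 change stood at -3.09 for 22Rv1, -1.55 for DU145 and 0.58 for PC3. The DU145 mean joins unlike guides, at -0.26 with gRNA 2, which did not pass, and -2.84 with gRNA 10. Between 22Rv1 and DU145, 4 of 8 members differed, beside 47.1% of all genes, 2 higher and 2 lower (23.5% and 23.6%). Between 22Rv1 and PC3, 4 of 8 differed, beside 45.3%, 2 higher and 2 lower (23.3% and 22.0%). In both pairs the 8 include PLAU, MMP1 and MMP13, which were at or near 0 in 22Rv1 and entered the model through other lines. Their SE were 1.55, 1803 and 1627 log2 units against DU145 and 1.54, 5798 and 4152 against PC3. These genes could hardly be called there, so the shares of 8 do not compare well with those of all genes. Between DU145 and PC3, 8 of 8 differed, beside 42.2%, 5 higher and 3 lower (21.3% and 20.9%). One of the 5 is MMP1, which had only 4 to 9 counts a group in DU145 and entered the model through its level in PC3.

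Of 53 other genes of plasminogen activation and pericellular proteolysis, 39 were tested in 22Rv1, 34 in DU145 and 38 in PC3. In 22Rv1, 12 rose and 10 fell with gRNA 1, and 12 rose and 9 fell with gRNA 10, with medians of 0.24 and 0.16 log2 units. These called genes are 56.4% and 53.8% of those tested, beside 48.5% and 40.6% of all genes. Those that moved the same way with both guides included S100A10, a subunit of the plasminogen-binding annexin A2 complex, which went from 3.57 ± 0.149 CPM to 243 ± 34.7 with gRNA 1 (6.09 log2 units, adjusted p = 1.06e-09) and 80.5 ± 3.36 with gRNA 10 (4.49, adjusted p = 3.82e-09). A2M, a broad protease inhibitor, went from 0 to 4 counts in the controls to 67 to 239 and 113 to 131 counts. ADAM8, a membrane metalloproteinase, rose by 2.91 and 1.92 log2 units (adjusted p = 0.000702 and 0.0103). The gRNA 1 change of ADAM8 was 2.06 without replicate 3 (adjusted p = 2.39e-06). ADAMTS1, a secreted metalloproteinase, fell from 102 ± 3.25 CPM to 11.7 ± 0.139 and 19.5 ± 1.59 (-3.12 and -2.39). In DU145, 9 rose and 7 fell with gRNA 2, and 9 rose and 6 fell with gRNA 10 (medians 0.12 and 0.12), which is 47.1% and 44.1% of those tested, beside 34.0% and 40.0% of all genes. SERPINE2, a serpin that inhibits plasminogen activators, rose with both guides. It went from 3.39 ± 0.514 CPM to 19.2 ± 1.59 with gRNA 2 and 28.4 ± 3.31 with gRNA 10 (2.50 and 3.06 log2 units, adjusted p = 2.79e-06 and 4.00e-07). The plasminogen receptor PLGRKT rose by 0.72 and 0.99 (adjusted p = 0.00168 and 0.000159), and the membrane metalloproteinase MMP24 fell (-0.89 and -1.43, adjusted p = 0.0326 and 0.00296). The gRNA 2 call of MMP24 was lost without any 1 of the controls, among other libraries.

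In PC3, 16 of the 38 rose and 8 fell with gRNA 2, and 22 rose and 13 fell with gRNA 10, with medians of 0.16 and 0.21. That is 63.2% and 92.1% of those tested, beside 63.6% and 73.5% of all genes. All 4 tested membrane serine proteases and inhibitors of that class rose with both guides, beside 32.1% and 37.9% of all genes, and no test was made of the list. In 22Rv1, 0 of the 7 tested rose and 3 fell with each guide, beside 22.9% and 20.6% of all genes that fell. Of the 4 tested in DU145, 1 rose and 1 fell with gRNA 2, and 0 rose and 2 fell with gRNA 10. There 17.0% and 19.8% of all genes fell. Of this class in PC3, TMPRSS2, a transmembrane serine protease, went from 10.7 ± 0.764 CPM to 30.6 ± 0.976 and 108 ± 6.41 (1.51 and 3.33 log2 units, adjusted p = 8.69e-18 and 1.95e-28). SPINT1, an inhibitor of such proteases, went from 54.6 ± 0.592 to 124 ± 3.91 and 149 ± 5.44 (1.18 and 1.45). MMP15, the nearest relative of MMP14, went from 4.46 ± 0.216 to 14.5 ± 0.544 and 27.8 ± 0.338 CPM (1.70 and 2.64, adjusted p = 2.53e-16 and 9.49e-23). MMP28 had 0 to 5 counts in the controls, 52 to 58 with gRNA 2 and 111 to 139 with gRNA 10. Of the 5 tested serpins and other inhibitors of plasminogen activation, 1 rose and 2 fell with gRNA 2, and 1 rose and 4 fell with gRNA 10. Of all genes, 32.1% rose and 31.5% fell with gRNA 2, and 37.9% rose and 35.6% fell with gRNA 10.

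To see which genes varied most like each member, log2 CPM were taken as deviations from the mean of the line's controls and correlated over all 27 libraries, among 16321 other genes. These values share libraries and their scaling, and are descriptions. MMP1 and MMP13, with at most 5 and 24 counts in a library outside PC3, enter through their level in the 9 PC3 libraries. The highest Pearson r were 0.96 between PLAUR and DVL1, 0.96 between TIMP2 and BCAM, 0.95 between TIMP1 and SEC61G, 0.94 between MMP14 and MST1R, 0.93 between PLAT and HSP90B1, 0.93 between MMP1 and EPHA5, 0.91 between MMP13 and NUDT16P1, and 0.80 between PLAU and ZNF677. The second in rank were LUC7L for PLAUR (0.91), SLC3A2 for TIMP2 (0.93), SERPINH1 for TIMP1 (0.95), CACNA2D3 for PLAT (0.93), DDHD1 for MMP1 (0.91), PYGO1 for MMP13 (0.91) and CST6 for PLAU (0.80). PLAU had the lowest such r of the 8 members.

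By GENCODE 29 (GRCh38) the genes lie at chr10:73909177-73917497 (PLAU), chr19:43646095-43670547 (PLAUR), chr11:102789920-102798160 (MMP1), chr11:102942995-102955734 (MMP13), chr14:22836557-22849027 (MMP14), chrX:47582313-47586789 (TIMP1), chr17:78852977-78925387 (TIMP2), chr18:63871692-63903890 (SERPINB2) and chr8:42175233-42207724 (PLAT). On the opposite strand PLAU overlaps C10orf55, MMP1 overlaps WTAPP1, TIMP1 overlaps SYN1 and TIMP2 contains antisense transcripts. On the same strand TIMP2 contains CEP295NL, PLAUR contains RN7SL368P and SERPINB2 overlaps SERPINB10. The libraries were strand-specific, but whether the counting used strand is not given in the sources used here, so reads shared with these genes cannot be told apart.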

How the data were processed

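RNA of 27 cell line samples was extracted with a column kit and sequenced from strand-specific mRNA libraries as paired reads of 150 bases, per the labels' protocols. What the authors deposited is a matrix for each line that holds unnormalized whole-number counts by gene symbol. The submitters' processing notes name FastQC, STAR, edgeR and hg38; versions, roles and the annotation are not given in the sources used here. Groups and replicate numbers came from the sample titles.

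Counts were fitted with edgeR 4.0.16 in R 4.3.3 (TMM, filterByExpr with a minimum count of 10 and total of 15, robust quasi-likelihood F test, two-sided), the 9 libraries of a line together with group as the only term. Lines were compared in 1 model of 27 libraries over the 20089 symbols listed in all 3 tables. The knockout effect there is the mean of both guides minus control. SE were derived from the F statistic. Replicates differed by more than counting noise in every group. The 22Rv1 table lists 6 symbols more than once and the others 2 each; repeats were summed unless identical. The fits were tested on simulated data. Lengths and neighbours came from GENCODE 29.

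The members and gene lists were chosen with earlier results of these data known. Named pathway genes were up to 4 a line called with both guides in 1 direction, with a mean of at least 100 counts in some group, ranked by the smaller change. Some genes that this rule and the other rules for named genes select are not reported here. Alternatives were RLE factors, DESeq2 1.42.0, other low-count filters, a replicate block, fits of only the libraries compared, and each library left out; leaving out both libraries that stand apart was added after seeing the data.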

Additional observations from a re-analysis of the deposited data

Results flagged for a closer look

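The knockout effect (mean of both guides minus control, in log2 units) was compared between lines in the model of all 27 libraries, with edgeR adjusted p over 16322 genes, and 16 such differences passed. Between 22Rv1 and DU145, MMP14 differed by -1.54 ± 0.20 (estimate ± SE, first line minus second, adjusted p = 5.85e-07), PLAT by -3.25 ± 0.38 (adjusted p = 1.29e-07), TIMP1 by 0.51 ± 0.17 (adjusted p = 0.0141) and TIMP2 by 0.79 ± 0.23 (adjusted p = 0.00608). Between 22Rv1 and PC3, MMP14 differed by -3.67 ± 0.19 (adjusted p = 3.47e-14), PLAT by -1.21 ± 0.38 (adjusted p = 0.0119), TIMP1 by 1.01 ± 0.16 (adjusted p = 1.43e-05) and TIMP2 by 1.51 ± 0.23 (adjusted p = 6.10e-06). The fitted PLAT differences with 22Rv1 rest on 4 counts with gRNA 10 and are no bound. The 22Rv1 mean of PLAT joins guides on opposite sides of 0, up by 0.59 with gRNA 1 (not called) and down with gRNA 10. The PLAT difference with PC3 was lost without 22Rv1 gRNA 10 replicate 1 (adjusted p = 0.0533). The TIMP1 difference with DU145 was lost without 22Rv1 control replicate 2 (adjusted p = 0.0598).

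Between DU145 and PC3, MMP14 differed by -2.13 ± 0.17 (adjusted p = 1.83e-10) and PLAT by 2.05 ± 0.21 (adjusted p = 1.82e-08), with each line's mean change on an opposite side of 0. PLAU differed by -0.85 ± 0.17 (adjusted p = 0.000324), where the DU145 mean joins guides that moved in opposite directions, and PLAUR by -0.86 ± 0.26 (adjusted p = 0.00873). MMP1 differed by 2.15 ± 0.59 (adjusted p = 0.00850), resting on 4 to 9 counts a group in DU145, and MMP13 by 1.18 ± 0.29 (adjusted p = 0.00223). The PC3 mean of MMP13 joins guides on opposite sides of 0, at 0.18 with gRNA 2 and -2.19 with gRNA 10. TIMP1 differed by 0.51 ± 0.16 (adjusted p = 0.0147) and TIMP2 by 0.71 ± 0.19 (adjusted p = 0.00440). PLAUR did not pass between 22Rv1 and DU145 (0.62, adjusted p = 0.101) or between 22Rv1 and PC3 (-0.24, adjusted p = 0.575); without both libraries that stand apart the values were 0.50 (adjusted p = 0.00700) and -0.55 (adjusted p = 0.00429).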

How the results depend on the processing

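The counts of called members in 22Rv1 and PC3 stayed within 1.5 times the reported ones under every alternative run. In DU145 they did not. With gRNA 2 the 2 members became 1 with the replicate block and 1 in a fit of only the libraries compared, and ranged from 1 to 4 when single libraries were left out. With gRNA 10 the 3 members became 5 in a fit of only the libraries compared and ranged from 3 to 5 with libraries left out, as they did between the guides. The pathway genes called in DU145 became 25 with gRNA 10 and 8 with gRNA 2 in a fit of only the libraries compared, and ranged from 7 to 22 with gRNA 2 when libraries were left out. All genes called in that fit were 9749 for gRNA 10 against 5956, and 3335 for gRNA 2 against 5072 (3259 and 3329 without control replicates 1 and 3). A filter of at least 10 counts per library, in all of them, left fewer members to test and gave 3, 4 and 4 between controls (22Rv1 with DU145, 22Rv1 with PC3, DU145 with PC3) and 4 for the knockout effect between DU145 and PC3. The cause of the other changes was not tested.

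Signs turned only for estimates that had not passed. With single libraries left out, the DU145 gRNA 2 changes ranged from -0.23 to 0.32 for PLAUR, -0.29 to 0.35 for PLAT and -0.28 to 0.21 for TIMP1. The DU145 gRNA 10 changes then ranged from -0.49 to 0.18 for MMP13 and -0.0054 to 0.047 for TIMP1, and the guide differences from -0.30 to 0.19 for TIMP1 in DU145 and -0.27 to 0.55 for PLAUR in 22Rv1. The control differences ranged from -0.13 to 0.024 for TIMP1 (22Rv1 with DU145) and -0.017 to 0.011 for PLAU (DU145 with PC3), which was 0.000796 with RLE factors and 0.000796 with DESeq2. The replicate block gave -0.0021 for PLAT and -0.0095 for TIMP1 with DU145 gRNA 2, and -0.035 for TIMP1 between the DU145 guides, which the stricter count filter put at -0.0038. Replicate numbers were not taken to pair the samples. Libraries with the same title number deviated together with r from -0.19 to 0.34, and those with different numbers with r from -0.33 to 0.23. Some library names carry other numbers than the titles, so these values do not settle whether samples were paired. The block ended the call of TIMP2 with DU145 gRNA 2 (adjusted p = 0.0609).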
